A study of Homo sapiens with 6 samples.

Results

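Expression was examined for 9 genes of the early transcriptional response in cultured human cells: the nuclear receptor genes NR4A1, NR4A2 and NR4A3, the zinc finger factor genes EGR1, EGR2 and EGR3, the immediate early response genes IER2 and IER5, and SRF, the gene of serum response factor. They were chosen by symbol, each matched 1 Ensembl gene ID, and they are 9 of 38900 IDs in the table. RNA was measured by sequencing after polyA selection in 6 libraries of hTERT RPE1, an established line derived from human retinal pigment epithelium and immortalised with telomerase. All cultures were held at confluence for 5 days, a treatment meant to stop division, and all received fresh medium for the last 6 hours. In 3 libraries this medium held 0.1% DMSO, the solvent, and in 3 it held 100 nM combretastatin A4 (CA4), which binds tubulin and takes microtubules apart. The labels number the libraries 1 to 3 in each group but do not say whether a number stands for a separate culture, so p-values measure only the spread between these libraries.

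Immediate early genes are transcribed within minutes of a stimulus from factors already present in the cell, and their messages are short-lived. NR4A proteins are orphan nuclear receptors whose activity is set largely by how much protein is made. EGR proteins bind GC-rich sites through zinc fingers and are held in check by the corepressors NAB1 and NAB2. SRF binds the CArG box, a short AT-rich element, together with ternary complex factors such as ELK1 or with the actin-regulated coactivators MRTFA and MRTFB, and drives both immediate early genes and genes of the actin cytoskeleton. IER2 and IER5 encode small nuclear proteins of 1 family, and IER5 is known to act on heat shock factor.

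Promoter windows were searched for elements through which SRF and the cAMP response factors are known to act. RefSeq windows of GRCh38.p14 were found for 7 of the 9 genes, 11 windows in all, and the 250 bases before each start were searched on both strands. The CArG box, searched in its strict form, occurred in 1.16% of the 35116 windows of all genes. Among the 7 genes searched it occurred in EGR1, SRF and the third listed start of EGR2. The sequences are 5′ to 3′ on the gene's strand, with CArG boxes in capitals for EGR1 (chr5:138465229-138465478, plus strand), SRF (chr6:43171019-43171268, plus strand) and EGR2 (chr10:62816367-62816616, minus strand).
EGR1: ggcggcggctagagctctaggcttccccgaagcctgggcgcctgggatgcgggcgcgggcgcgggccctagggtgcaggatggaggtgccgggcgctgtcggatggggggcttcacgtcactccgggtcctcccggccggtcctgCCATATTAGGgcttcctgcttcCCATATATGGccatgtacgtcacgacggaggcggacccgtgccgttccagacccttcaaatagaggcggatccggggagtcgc
SRF: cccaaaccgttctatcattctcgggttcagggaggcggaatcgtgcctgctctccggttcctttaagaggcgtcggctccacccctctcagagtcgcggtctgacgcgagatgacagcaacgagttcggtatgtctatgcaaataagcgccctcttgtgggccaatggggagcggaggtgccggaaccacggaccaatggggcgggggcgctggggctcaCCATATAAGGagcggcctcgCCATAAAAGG
EGR2: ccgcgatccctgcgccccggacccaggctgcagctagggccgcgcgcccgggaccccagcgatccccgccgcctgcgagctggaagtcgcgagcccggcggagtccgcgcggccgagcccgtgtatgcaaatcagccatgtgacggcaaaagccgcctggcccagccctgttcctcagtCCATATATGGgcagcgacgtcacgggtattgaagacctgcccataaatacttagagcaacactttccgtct
EGR1 and SRF each held 2 CArG boxes and EGR2 held 1. In EGR1 they began 105 and 83 bases before the start, in SRF 30 and 10 bases, and in EGR2 71 bases.

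NR4A3 (chr9:99821635-99821884, plus strand) is shown for another element, the half-site of the cAMP response element with the letters TGACG, in capitals on whichever strand it matched.
NR4A3: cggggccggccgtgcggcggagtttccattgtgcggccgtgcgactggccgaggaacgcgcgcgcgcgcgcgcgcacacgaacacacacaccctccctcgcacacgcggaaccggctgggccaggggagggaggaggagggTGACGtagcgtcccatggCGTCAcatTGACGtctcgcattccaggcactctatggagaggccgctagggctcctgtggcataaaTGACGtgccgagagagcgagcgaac
This window held 4 half-sites, against 2 each in EGR1 and in the third window of EGR2 and 1 each in SRF and IER2. At least 1 half-site occurred in 21.2% of all windows. The full element TGACGTCA, found in 1.65% of all windows, and the NR4A binding site AAAGGTCA, found in 1.05%, matched in none of the 11. The EGR site GCGNGGGCG matched once in EGR1 and once in SRF, and in 8.41% of all windows. The 2 windows of NR4A1, the window of IER5, the first and second windows of EGR2 and the second window of SRF held none of these elements. NR4A2 and EGR3 had no entry. Other starts and more distant sequence were not searched, so an element not found in a window may lie elsewhere in the gene's promoters.

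**Figure D1:**
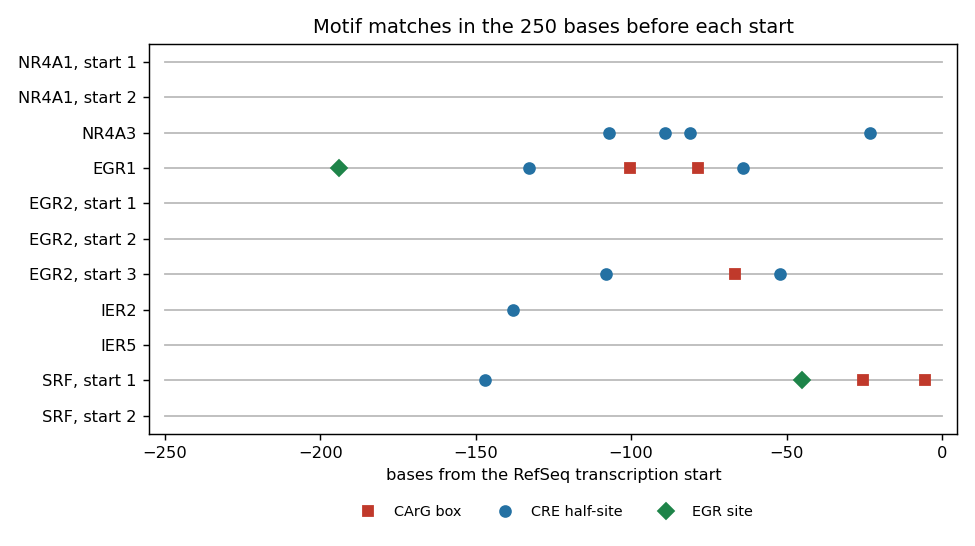
Positions of motif matches in the 250 bases before each RefSeq start of the 7 genes with an entry (horizontal axis, bases from the start; 1 line per start; squares for CArG boxes, circles for cAMP response element half-sites, diamonds for EGR sites). CArG boxes lie in EGR1, SRF and start 3 of EGR2, and the 4 matches of NR4A3 are half-sites.

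The libraries held from 19524936 to 22538004 recovered reads. Levels are given as normalized counts, reads divided by 1 scaling factor per library, so that 1 read is worth between 0.935 and 1.12 of them. Of 13 genes that mark retinal pigment epithelium, 8 had a mean of at least 10 normalized counts. They summed to 24199 to 26623 in DMSO and 27036 to 32208 in CA4, mostly from the keratins KRT8 and KRT18, while RPE65 lay between 13.5 and 40.8 in all 6 libraries and RGR was at 0 in each. Of the 8, 4 had a positive and 4 a negative log2 fold change with a median of 0.03, and 1 passed in limma. The epithelium's transcription factor OTX2, named after its values were seen, fell with CA4: it averaged 244 ± 15.5 normalized counts there, against 533 ± 104 in DMSO (SD, n = 3 each, limma adjusted p = 0.0158), and MITF had 457 ± 170 and 885 ± 239 (SD, n = 3 each, limma adjusted p = 0.1). KRT18 was higher in all CA4 libraries, with a log2 fold change of 0.46 (limma adjusted p = 0.0849). Of 10 markers of other cell types, 7 had a mean of at least 10, the summed levels ran from 41200 to 70268 in DMSO and from 31599 to 62313 in CA4, and most of each sum was the mesenchymal gene COL1A1 (25922 to 62433). PTPRC reached at most 10.6 and EPCAM at most 4.46. The endothelial gene PECAM1 lay between 284 and 338 in DMSO and at 457, 357 and 916 in CA4, all higher (limma adjusted p = 0.215, unadjusted 0.0484), and VWF between 509 and 756 in DMSO and at 805, 717 and 1732 in CA4 (limma adjusted p = 0.287). The part of these markers in the results was not tested. The 5 proliferation markers summed to 4452 to 10059 in DMSO and 2560 to 8128 in CA4, and all 5 were highest in replicate 1 of both groups.

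Of the 9 genes, 3 rose with CA4 and none fell: NR4A1, IER5 and SRF had an adjusted p under 0.05 by limma, fitted over 13928 tested genes. Of all tested genes 4.94% passed, 2.97% higher and 1.97% lower in CA4. At an unadjusted p under 0.05, 6 of the 9 were higher and 0 lower, against 11.9% of all tested genes higher and 23% in either direction, and no member was called lower by edgeR or DESeq2. The 3 CA4 libraries lay above the 3 DMSO libraries in 5 of the 9 genes (NR4A1, NR4A3, IER2, IER5 and SRF), against 14.3% of all tested genes. The median log2 fold change of the 9 genes was 0.72, beside -0.0082 over all tested genes. All 9 averaged 10 or more normalized counts, the minimum for testing. Giving all libraries equal totals moved the median of all tested genes by -0.10 and the share of called genes that were higher from 60% to 34.8%, while the same 3 of the 9 genes passed and none of the 9 changed sign.

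**Figure D2:**
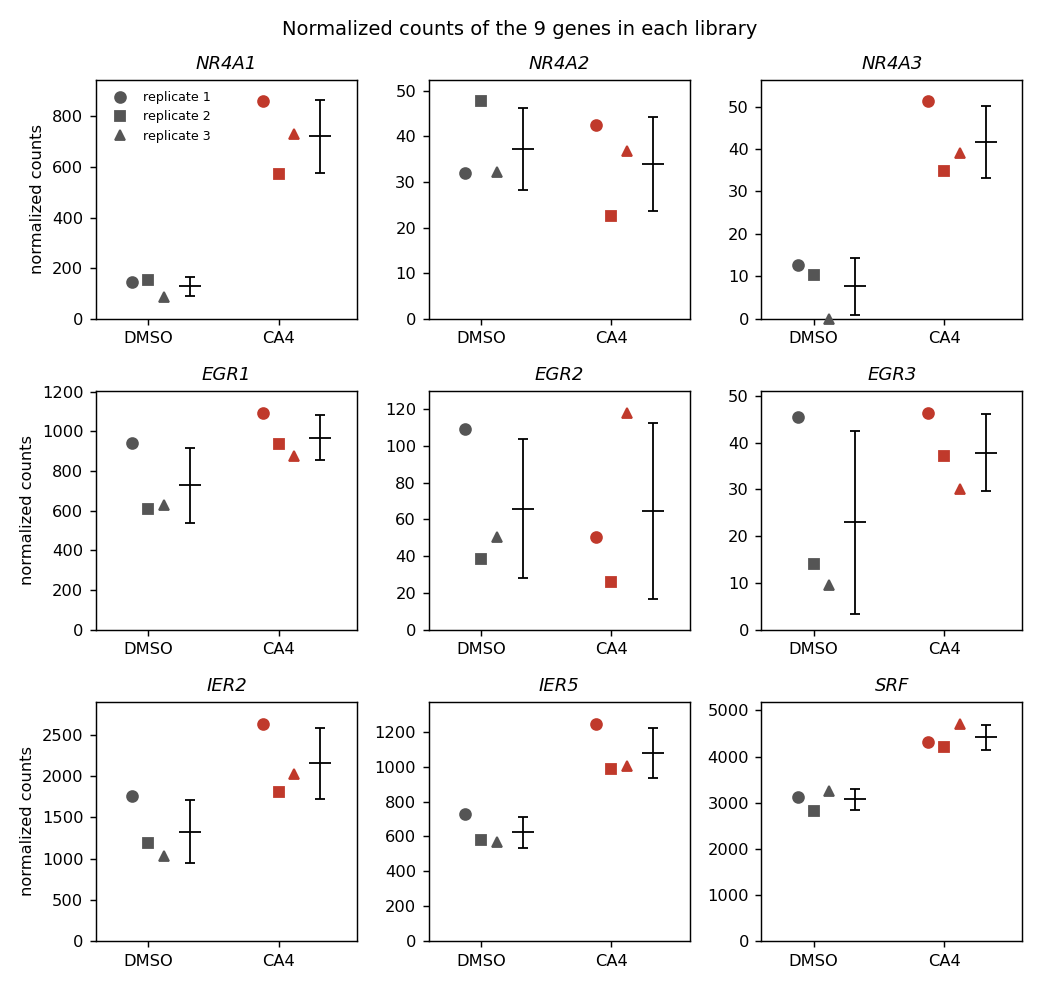
Normalized counts of each gene (vertical axes, linear from 0, a separate scale per panel) in the DMSO and CA4 libraries. Symbols are replicate numbers, and bars to the right of each group are mean ± SD of 3 libraries. The groups part in NR4A1, NR4A3, IER2, IER5 and SRF and overlap in NR4A2, EGR1, EGR2 and EGR3.

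Of the 3 NR4A genes only NR4A1 passed in limma, against 4.94% of all tested genes. NR4A1, also known as Nur77 (ENSG00000123358, chr12:52022832-52059507 in GENCODE 29, plus strand), had 147, 151 and 84.5 normalized counts in the DMSO libraries, given here and below in the order of their numbers, and 859, 571 and 732 in the CA4 libraries. The lowest CA4 library was well above the highest DMSO library, and the ratio of the group means was 5.65. The log2 fold change was 2.52 (SE 0.26, 95% interval 1.92 to 3.12, limma adjusted p = 0.0057), and 0.251% of all tested genes had a higher one. NR4A1 was the only one of the 9 genes to pass in each of the 6 fits without 1 library, with log2 fold changes from 2.25 to 2.67.

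NR4A3 (ENSG00000119508, chr9:99821855-99866891, plus strand), or NOR1, was the least abundant member per kb of transcript in both groups. Its DMSO libraries held 12.6, 10.3 and 0 normalized counts, from 13, 11 and 0 reads, and its CA4 libraries 51.2, 34.8 and 39, from 53, 31 and 35 reads. All CA4 libraries were higher, and the 0 in DMSO replicate 3 allows up to 3 reads. The ratio of group means, 5.47, was near that of NR4A1, but the log2 fold change of 2.98 had an SE of 0.96 and missed the threshold (limma adjusted p = 0.12). It was 1.77 without DMSO replicate 3 (limma adjusted p = 0.0969), 4.13 with a pseudocount of 0.1 in place of 1 and 2.07 with a pseudocount of 5. DESeq2 on the recovered reads placed it past the threshold (log2 fold change 2.45, DESeq2 adjusted p = 0.0302) and edgeR did not (edgeR adjusted p = 0.132).

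NR4A2, or Nurr1 (ENSG00000153234, chr2:156324432-156342348, minus strand), had 31.9, 47.7 and 32.3 normalized counts in DMSO, against 42.5, 22.4 and 36.8 in CA4. The DMSO range lay within the wider CA4 range except for its highest library. Its log2 fold change was -0.16 with a 95% interval from -0.96 to 0.64 (limma adjusted p = 0.833), so changes of any size within that interval remain possible. Its SD between libraries, 9.01 in DMSO and 10.3 in CA4, was 1.52 and 1.73 times the SD that counting reads alone would give.

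Members of a family were also compared within each library, as differences of log2(normalized count + 1). The log2 ratio of NR4A1 to NR4A2 was 2.17, 1.65 and 1.36 in DMSO, against 4.30, 4.61 and 4.28 in CA4. The difference was 2.67 (exact permutation, two-sided, p = 0.1, which 3 libraries against 3 cannot go below, and 0.3 after Benjamini-Hochberg adjustment over 6 pairs of family members). The log2 ratio of NR4A2 to NR4A3 differed by -3.13 between the groups (exact permutation p = 0.1, adjusted 0.3), and that of NR4A1 to NR4A3 by -0.46 (exact permutation p = 1, adjusted 1). Both move with the 0 of NR4A3 in DMSO replicate 3, and the second changes sign: without that library they were -2.01 and 0.48, with a pseudocount of 0.1 they were -4.29 and -1.60, and with one of 5 they were -2.20 and 0.41. Without DMSO replicate 1 or 2 the difference for NR4A1 to NR4A3 was -1.01 or -0.85. Per kb of the principal transcript in GENCODE 29, NR4A1 made up 79.5% ± 2.93 of the summed level of the 3 NR4A genes in DMSO, against 94.1% ± 0.328 in CA4 (SD, n = 3 each). NR4A2 made up 18.6% ± 4.47 and 3.36% ± 0.434 (SD, n = 3 each), and NR4A3 1.94% ± 1.73 and 2.56% ± 0.184 (SD, n = 3 each). Per kb of all exons merged, the share was 61.9% ± 4.24 and 86.8% ± 0.662 for NR4A1, and 34.3% ± 7.33 and 7.39% ± 0.928 for NR4A2 (SD, n = 3 each). NR4A1 thus took a larger share of the family's messages in each CA4 library than in any DMSO library.

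Of the 3 EGR genes 0 passed in limma, edgeR or DESeq2, against 4.94% of all tested genes in limma. Only 1, EGR1, had an unadjusted limma p under 0.05, against 23% of all tested genes. EGR1 (ENSG00000120738, chr5:138465490-138469315, plus strand), the most abundant, had 944, 609 and 631 normalized counts in DMSO and 1095, 936 and 876 in CA4. DMSO replicate 1 lay above 2 of the 3 CA4 libraries. Its log2 fold change was 0.44 (SE 0.18, 95% interval 0.01 to 0.86, limma adjusted p = 0.207). Without DMSO replicate 1 it was 0.64 and past the threshold (limma adjusted p = 0.0348), and over the 6 fits without 1 library it ran from 0.32 to 0.64.

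EGR2 (ENSG00000122877, chr10:62811996-62919900, minus strand), known for its role in myelinating Schwann cells and in lymphocytes, varied more within groups than between them. The DMSO libraries stood at 109, 38.3 and 50.3 normalized counts and the CA4 libraries at 50.3, 25.8 and 118. The highest library was replicate 1 in DMSO and replicate 3 in CA4, and the lowest and highest CA4 libraries differed 4.58-fold. This spread was 4.77 and 5.73 times the SD expected from counting alone in DMSO and CA4. The log2 fold change of -0.15 (95% interval -1.53 to 1.23, limma adjusted p = 0.915) turned positive, to 0.28 and 0.37, without DMSO replicate 1 or without CA4 replicate 2.

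EGR3 (ENSG00000179388), which EGR1 and EGR2 resemble in their zinc fingers, had 45.4, 14 and 9.5 normalized counts in DMSO and 46.4, 37 and 30.1 in CA4. DMSO replicate 1 lay between the second and the highest CA4 library, and the other 2 DMSO libraries lay below all 3 of CA4. EGR3 had a log2 fold change of 0.98 (95% interval -0.33 to 2.29, limma adjusted p = 0.348), which was 1.61 without DMSO replicate 1 and 0.54 without DMSO replicate 3 (limma adjusted p = 0.0634 and 0.649). In both edgeR and DESeq2 it was 0.72 (adjusted p = 0.508 and 0.564). The log2 ratios of EGR1 to EGR2 and of EGR1 to EGR3 differed between groups by 0.58 and -0.54 (two-sided exact permutation p = 0.5 and 0.4, both 0.75 adjusted). These values turn on single libraries. Omitting CA4 replicate 2 took the first to 0.09, omitting DMSO replicate 1 to 0.35 and omitting CA4 replicate 3 to 1.21, and the second was -0.19 without DMSO replicate 3 and -0.97 without DMSO replicate 1. Per kb, EGR1 made up 90% ± 3.15 of the 3 EGR genes' summed level in DMSO, against 91% ± 4.68 in CA4 (SD, n = 3 each). This difference was smaller than the spread.

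IER2 and IER5 were both higher in every CA4 library than in any DMSO library. IER5 (ENSG00000162783, chr1:181088712-181092899, plus strand) had 726, 581 and 566 normalized counts in DMSO and 1248, 988 and 1002 in CA4. Its log2 fold change was 0.79 (SE 0.14, 95% interval 0.46 to 1.12, limma adjusted p = 0.0251). IER2 (ENSG00000160888, chr19:13150415-13154908, plus strand) had 1756, 1186 and 1029 in DMSO and 2638, 1809 and 2026 in CA4. Its fold change was close to that of IER5, at 0.72 on the log2 scale, but with a wider error (SE 0.22, 95% interval 0.22 to 1.23) it missed the threshold (limma adjusted p = 0.0997). DMSO replicate 1 came close to the lowest CA4 library, and without it IER2 passed (log2 fold change 0.95, limma adjusted p = 0.0273), as it did in DESeq2 (adjusted p = 0.0171). It missed in edgeR (adjusted p = 0.111), and this was the only 1 of the 6 fits without 1 library in which IER2 passed. The log2 ratio of IER5 to IER2 differed between the groups by 0.07, less than its SD of 0.21 in DMSO and 0.11 in CA4 (two-sided exact permutation p = 0.7, adjusted 0.84), and ran from -0.0427 without DMSO replicate 1 to 0.163 without DMSO replicate 3. In GENCODE 29, 30.8% of the exon bases of IER2 and 10.3% of those of NR4A1 also lie in an annotated gene on the opposite strand. Use of strand is not given in the sources used here, so reads from these partners could not be told apart.

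SRF (ENSG00000112658, chr6:43171299-43181507, plus strand) was the most abundant of the 9 per kb, and its highest and lowest libraries within a group differed by the smallest ratio, 1.15 in DMSO and 1.12 in CA4. It had 3116, 2829 and 3261 normalized counts in DMSO against 4320, 4212 and 4712 in CA4, and the groups did not overlap. The log2 fold change was 0.53 (SE 0.09, 95% interval 0.32 to 0.73, limma adjusted p = 0.0207). A higher fold change was found in 8.8% of all tested genes. The calls of SRF and IER5 were kept without DMSO replicate 1 or CA4 replicate 2 and lost without each of the other 4 libraries, with limma adjusted p-values for SRF of 0.0774 without DMSO replicate 2, 0.0686 without DMSO replicate 3, 0.0702 without CA4 replicate 1 and 0.0829 without CA4 replicate 3. For IER5 these were 0.0974, 0.103, 0.081 and 0.0758. The log2 fold changes stayed between 0.47 and 0.57 for SRF and between 0.68 and 0.90 for IER5.

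**Figure D3:**
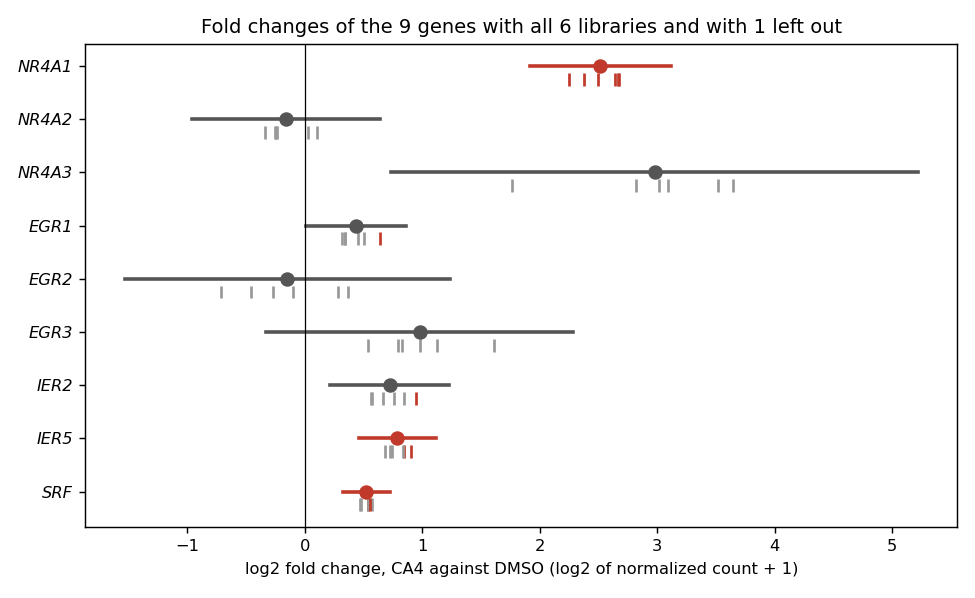
Log2 fold change of each gene, CA4 against DMSO, on the scale log2(normalized count + 1). Circles and bars are the fit with all 6 libraries and its 95% interval, small ticks below are the 6 fits without 1 library, and red marks an adjusted p under 0.05. Only NR4A1 is red in all 7 fits, and the ticks of NR4A2 and EGR2 lie on both sides of 0.

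Replicate 1 was the highest library of its group in many of these genes. It was highest in DMSO for 6 of the 9 and in CA4 for 7 of the 9, and in both groups for 5 (NR4A3, EGR1, EGR3, IER2 and IER5). Over all tested genes replicate 1 was highest in 38.1% in DMSO, 33.6% in CA4 and 19.9% in both. MKI67, a marker of dividing cells, stood at 4849, 2045 and 2246 normalized counts in the DMSO libraries and at 4233, 2388 and 1191 in the CA4 libraries. The part of dividing cells in the levels of these genes was not tested, and in bulk RNA fewer cells of a kind and less RNA per cell cannot be told apart. Without DMSO replicate 1, 5 of the 9 genes passed (EGR1, IER2, IER5, NR4A1 and SRF), and without DMSO replicate 2, DMSO replicate 3, CA4 replicate 1 or CA4 replicate 3 only NR4A1 did. The counts over all tested genes moved too. They were 990 of 13956 without DMSO replicate 1, and 107, 84, 156 and 150 in the fits where only NR4A1 passed, in the order named.

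Levels of different genes were compared per kb of transcript. With the principal transcript of GENCODE 29 as length, the order in DMSO was SRF (730 ± 52.3 normalized counts per kb), IER2 (451 ± 130), EGR1 (232 ± 59.7), IER5 (149 ± 21.2), NR4A1 (47.6 ± 14), EGR2 (22.2 ± 12.8), NR4A2 (10.7 ± 2.6), EGR3 (5.3 ± 4.51) and NR4A3 (1.33 ± 1.17) (SD, n = 3 each). Down to NR4A1 neighbours in this order did not overlap between libraries, and from NR4A1 to NR4A3 each neighbouring pair did. In CA4 NR4A1 stood at 269 ± 53.9 per kb and overlapped EGR1 (309 ± 36.1) and IER5 (258 ± 34.8) (SD, n = 3 each). NR4A1 thus went from below IER5 in every DMSO library to its level. This rests on the length used, since with all annotated exons of NR4A1, 7295 bases against 2678, it stood at 98.8 ± 19.8 per kb in CA4 (SD, n = 3) and below IER5 in both groups.

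**Figure D4:**
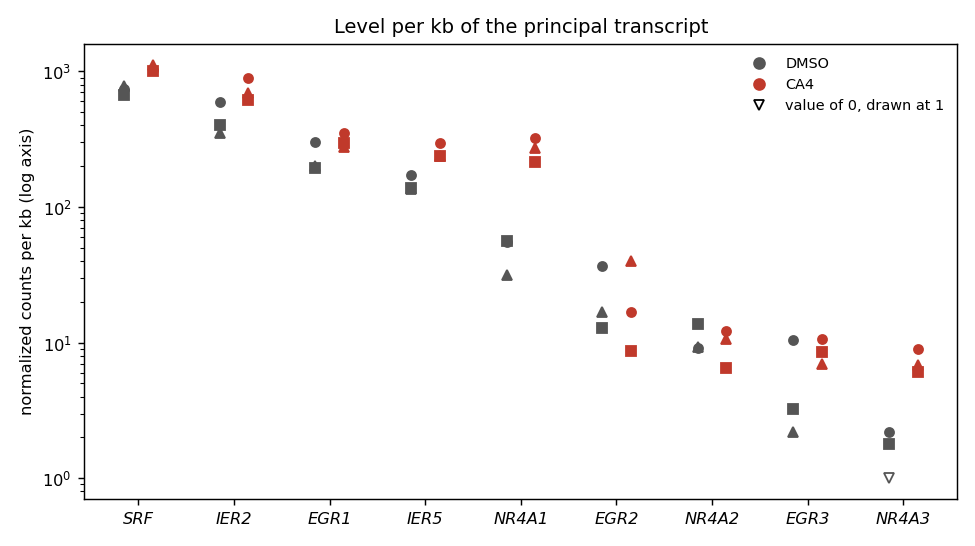
Normalized counts per kb of the principal transcript (log axis) for each gene in each library, ordered by the DMSO mean. Circles, squares and triangles are replicates 1, 2 and 3, and the open symbol marks the value of 0 of NR4A3 in DMSO replicate 3. NR4A1 shows the widest gap between the DMSO and CA4 libraries among genes with no value at 0.

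None of the partner genes passed in limma. Of 17 genes of corepressors, coactivators and partner factors, 15 were abundant enough to be tested. Of these, 0 passed in limma and edgeR, 1 in DESeq2 (RXRA, lower in CA4, named after its value was seen) and 3 had an unadjusted p under 0.05, against 23% of all tested genes. The median log2 fold change was 0.02. The EGR corepressor NAB1 had 746 ± 72.5 normalized counts in DMSO, against 784 ± 24.8 in CA4, and NAB2 985 ± 132 and 1100 ± 116 (SD, n = 3 each). The log2 fold change was 0.08 for NAB1 and 0.16 for NAB2, with limma adjusted p-values of 0.71 and 0.504. For the SRF coactivators it was -0.25 in MRTFA and -0.65 in MRTFB, with limma adjusted p-values of 0.418 and 0.189. Among the ternary complex factors, ELK1 had 746 ± 87.3 in DMSO, against 985 ± 90.3 in CA4 (SD, n = 3 each), with all CA4 libraries higher and a log2 fold change of 0.40 (limma adjusted p = 0.104). The value was -0.20 for ELK3 and 0.07 for ELK4, with limma adjusted p-values of 0.24 and 0.717.

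Of 40 other immediate early genes, 36 were tested, and 12 passed higher and 3 lower in CA4, against 2.97% and 1.97% of all tested genes. Their median log2 fold change was 0.40. The 4 with the smallest adjusted p went both ways. DUSP1, a phosphatase that turns off MAP kinases, rose from 1046 ± 39 to 2958 ± 138 normalized counts, and the kinase gene SGK1 from 2195 ± 516 to 7411 ± 455 (SD, n = 3 each; limma adjusted p = 4.4e-04 and 0.00404). GEM, a small GTP-binding protein, fell from 299 ± 64.1 to 81.8 ± 7.56, and DUSP4, another MAP kinase phosphatase, from 469 ± 49.2 to 204 ± 22.7 (SD, n = 3 each; limma adjusted p = 0.00631 and 0.00901). The other gene that fell was PHLDA1, named after its value was seen (log2 fold change -0.74, limma adjusted p = 0.0158). Higher calls did not outnumber lower ones in every fit that left out a library: 2 passed higher and 2 lower without CA4 replicate 1, 2 higher and 3 lower without CA4 replicate 3, and 3 higher and 2 lower without DMSO replicate 2 or DMSO replicate 3.

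Of 24 genes known as targets of SRF and MRTF, all were tested and 10 passed, all higher in CA4, against 2.97% of all tested genes. Their median log2 fold change was 0.40 under the deposited scaling. CCN1 is on this list and on that of the immediate early genes. The 4 with the smallest adjusted p were PDLIM5, LIMA1, ZYX and CALD1, which encode proteins of actin fibres and adhesions, with log2 fold changes of 1.12, 0.74, 0.72 and 0.76 in that order and limma adjusted p-values of 0.00154, 0.00841, 0.0117 and 0.0124. With quantile normalization 6 passed and the median was 0.19, and 6 passed also when libraries were given equal totals. Without DMSO replicate 2 the count was 3, without DMSO replicate 3 or CA4 replicate 2 it was 5, and without CA4 replicate 1 or CA4 replicate 3 it was 4.

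Of 12 genes known as targets of EGR1, 11 were tested and 4 passed, all higher in CA4 (2.97% of all tested genes did so), although EGR1 itself did not pass. The median log2 fold change was 0.63, and 0.99 without DMSO replicate 1. PDGFB, a growth factor, went from 246 ± 28.5 to 987 ± 240 normalized counts and F3, tissue factor, from 5800 ± 1535 to 16196 ± 3012 (SD, n = 3 each) (limma adjusted p = 0.00404 for PDGFB and 0.0122 for F3). The others were FGF2, with a log2 fold change of 1.15, and ICAM1, with 2.39 (limma adjusted p = 0.0115 and 0.0347). Many of these genes answer to other factors as well. The count was 2 without DMSO replicate 2 and 1 without DMSO replicate 3.

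**Figure D5:**
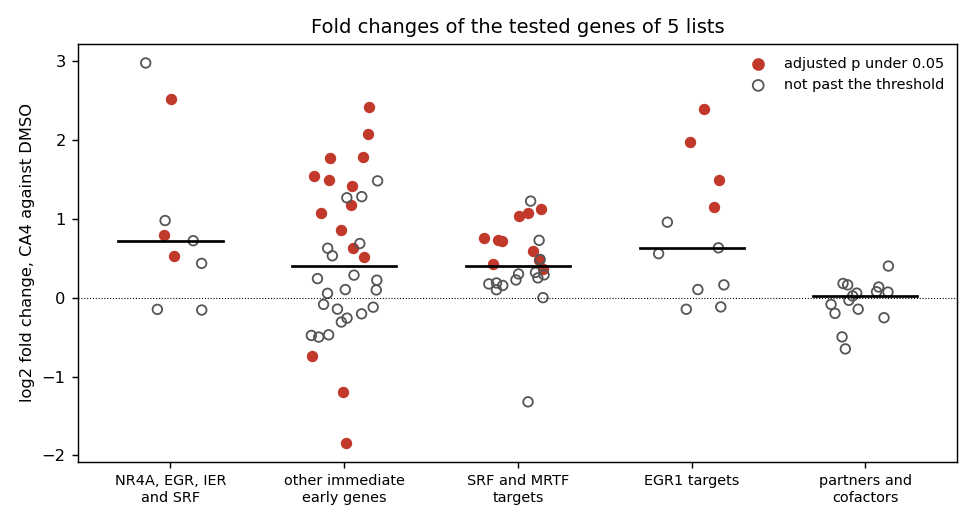
Log2 fold changes, CA4 against DMSO, of the tested genes of 5 lists (1 point per gene, horizontal scatter without meaning, black line the list median, filled red points past an adjusted p of 0.05). The median is near 0 for the partners and between 0.40 and 0.72 for the other 4 lists. With quantile normalization, not drawn, that of the SRF and MRTF targets was 0.19.

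The genes nearest in profile were found over the 6 libraries among 11683 genes that averaged 50 or more normalized counts, by the root mean square difference between log2 values centred on each gene's own mean. For NR4A1 they were CXCL8 (0.301), which encodes interleukin 8, TRAF1 (0.359), an adaptor of tumour necrosis factor receptors, and KCTD20 (0.373). CXCL8, like NR4A1, had its highest CA4 value in replicate 1 and its lowest in replicate 2, at 3650 and 1911 normalized counts. KCTD20 went the other way, with its highest CA4 value in replicate 2 (11421) and its lowest in replicate 1 (10147). All 3 lay further from NR4A1 than the genes below lay from EGR1 and SRF. For EGR1 the nearest were NOP56 (0.06), PDCD11 (0.0607) and TOMM40 (0.0621), of which NOP56 and PDCD11 act in ribosome assembly. None of these 3 passed in limma (adjusted p = 0.203, 0.163 and 0.229), and all 3 were highest in replicate 1 of both groups. For SRF they were SRA1 (0.0483), SRSF3 (0.0483) and EXT1 (0.0507), each past the threshold and higher in CA4. Genes this near in profile share direction, call and library order with the member by the way they were chosen. These traits are therefore not separate results.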

How the data were processed

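PolyA RNA of 6 libraries, 3 per group as named in their titles, was analysed from 1 table of normalized counts. The authors deposited a signal in which each gene's reads were divided by 1 scaling factor per library, as the table's name and values show. The submitters' processing notes name GRCh38, Trim Galore 0.6.6, FastQC 0.12.1, Salmon 1.8.0, STAR 2.7.9a and DESeq2 1.44.0 without roles. The annotation and use of strand are not given in the sources used here. In each column 100% of values were whole multiples of 1 step within 0.01, which recovered whole reads, possibly rounded estimates. The limit of 3 reads at a value of 0 covers counting error only, while 95% intervals are limma's, from the spread between libraries.

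Symbols came from the supplied table, with an entry for 35803 of 38900 IDs, and gene positions and lengths from GENCODE 29 (GRCh38). The 13928 genes averaging 10 or more normalized counts were tested on log2(normalized count + 1) with limma 3.58.1 in R 4.3.3 (empirical Bayes with a mean trend, treatment as the only term), two-sided, with Benjamini-Hochberg adjustment over all tested genes and a threshold of 0.05. Fold changes are on this log2 scale, where the added 1 shrinks differences between low values. The mean of logs can still exceed the log of the ratio of means, as in NR4A3 (2.98, against 2.44 in edgeR). edgeR 4.0.16 (quasi-likelihood, TMM) and DESeq2 1.42.0 were run on the recovered reads, and called 643 and 1613 genes against 688. The other alternatives were pseudocounts of 0.1 and 5, no filter, a mean of at least 50, 3 scalings, no variance trend, blocking on the replicate number and omitting single libraries. Scripts were tested on simulated data.

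The members and lists were chosen with earlier results of these data known. Named genes are the 9 members, NAB1, NAB2, MRTFA, MRTFB, ELK1, ELK3 and ELK4, up to 4 called genes per other list, taken by adjusted p, and the 3 genes nearest in profile to NR4A1, EGR1 and SRF. The marker genes, RXRA, PHLDA1 and CCN1 fall outside this rule and were named after their values were seen. List counts and medians are descriptions without a set test.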

Additional observations from a re-analysis of the deposited data

How the results depend on the processing

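NR4A1 kept its call in all 17 alternatives, with log2 fold changes from 2.25 to 2.67. SRF and IER5 kept theirs in 12 of 17 each, and lost them without the variance trend (limma adjusted p = 0.0748 and 0.0741) and in 4 fits without 1 library. NR4A3, EGR1, EGR3, IER2, IER5 and SRF were higher in CA4 in every alternative that gave them a value. Without the variance trend 103 genes passed in place of 688, with 1 of the 9 members (NR4A1) in place of 3, 5 other immediate early genes in place of 15, 1 SRF and MRTF target in place of 10 and 1 EGR1 target in place of 4. DESeq2 on the recovered reads called 1613 genes and 5 members. Quantile normalization and scaling to the same total each left 6 SRF and MRTF targets. Leaving out 1 library gave from 84 to 990 genes (990 without DMSO replicate 1), 1 to 5 members, 4 to 17 other immediate early genes, 3 to 10 SRF and MRTF targets and 1 to 5 EGR1 targets. The log2 fold change of NR4A2 ran from -0.34 to 0.11 in those fits and was positive, at 0.03 and 0.11, without DMSO replicate 2 or CA4 replicate 2, and that of EGR2 ran from -0.71 to 0.37, with 0.28 and 0.37 without DMSO replicate 1 or CA4 replicate 2. The difference in the log2 ratio of NR4A1 to NR4A3 ran from -1.01 to 0.48 without 1 library, and was 0.41 with a pseudocount of 5, against -0.46. That of IER5 to IER2 ran from -0.0427 to 0.163. Each fit without 1 library also has fewer libraries, and the cause of these changes was not tested. NR4A2, NR4A3 and EGR3 have no value with a filter at a mean of 50.

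With a replicate block 2397 genes passed, 6 members (EGR1, IER2, IER5, NR4A1, NR4A3 and SRF), 24 other immediate early genes and 17 SRF and MRTF targets. The limma adjusted p with the block was 0.0323 for EGR1, 0.00553 for IER2 and 0.0478 for NR4A3. Deviations from the group means correlated by 0.202, 0.159 and 0.0588 between same-numbered libraries. Each library correlated best with its own number except CA4 replicate 3. These values do not settle whether same-numbered libraries belong together. The libraries were treated as unpaired because the labels do not state a pairing and the correlations were not all above 0.1. NR4A2, NR4A3 and EGR3 rest on 215, 143 and 180 reads in all 6 libraries together, and their SDs in DMSO were 1.52, 2.49 and 4.17 times those from counting alone.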
